A study of Mus musculus with 8 samples.

Results

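Ly6Clo monocytes were compared with Ly6Chi monocytes of mouse bone marrow, the step at which one circulating monocyte population gives rise to the other. The comparison used 3 of the 8 libraries of the series, picked by their labels: both control Ly6Chi libraries and the only Ly6Clo library. The series follows intron retention, the persistence of introns in polyadenylated RNA, along the monocyte pathway. Its other libraries are the bone marrow progenitors of monocytes MDP (1 library) and cMoP (2), and Ly6Chi monocytes labelled as Upf2 knockouts (2). These helped set which genes and introns were tested, and the replicated groups entered the estimate of the spread between replicates. Some values and counts below also span all 8 libraries.

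Both Ly6Chi libraries are tagged wild type and carry a sample description marking floxed alleles, and the Ly6Clo library is tagged wild type with no floxed allele named. All 3 are labelled healthy and untreated. Source names give bone marrow monocytes, while a cell type tag in the same labels gives a monocytic cell line; the growth protocol speaks of primary cells. No label ties a library to an animal of its own, so the p-values below weigh differences against a sample-to-sample spread that may be technical. Within Ly6Chi, however, Xist differed between the replicates (values below), so that pair did not hold the same mix of male and female cells. The populations were collected side by side and are not a time course.

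Classical, Ly6Chi monocytes leave the bone marrow through the chemokine receptor Ccr2 and enter inflamed tissue. Part of them convert into non-classical, Ly6Clo monocytes, which patrol the inner wall of blood vessels, live longer and depend on the nuclear receptor Nr4a1. Intron retention can hold a transcript in the nucleus or send it to nonsense-mediated decay, the pathway that removes RNA with premature stop codons.

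Expression is given as TPM, a measure of transcript abundance per length that sums to 1000000 in a library. A gene was called when limma's test on log2(TPM + 1) gave an adjusted p under 0.05 over 13126 genes, and log2 differences below are on that scale, Ly6Clo minus the Ly6Chi mean, with standard errors (SE). In Ly6Clo 774 genes (5.90% of those tested) were higher and 934 (7.12%) lower, and the median difference over all genes tested was 0.04. Ly6Clo lay above both Ly6Chi libraries in 47.0% of genes and below both in 41.2%. The Ly6Chi replicates were at least 1 log2 unit apart in 250 genes (1.90%), and Ly6Clo was that far from the Ly6Chi mean in 2043 (15.6%). Among the called genes Ly6Clo was above each of the 7 other libraries of the series in 644 of those that rose and below each in 710 of those that fell. Leaving out 1 library at a time moved the number called: 587 without Ly6Chi replicate 1, 609 without Ly6Chi replicate 2, 942 and 949 without Upf2 knockout replicates 1 and 2, and 3683 and 3654 without cMoP replicates 1 and 2.

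The labels were checked first on the antigen that names them. Ly6c2, which encodes the Ly6C antigen itself, was at 3439 and 4057 TPM in Ly6Chi replicates 1 and 2 and at 62.8 in Ly6Clo. The populations did not overlap, and Ly6c2 fell 59.7-fold (log2 difference −5.87 ± 0.22, adjusted p = 0.000246). The gene lists from here on were drawn up with earlier results of these data known, so their counts are descriptions. Of 35 genes listed as marks of Ly6Chi monocytes, 20 were lower in Ly6Clo and 4 higher, with a median of −1.52. Without Ly6Chi replicate 1 or 2 the falling members numbered 12 and 11. The RNA is from bulk samples, in which fewer cells of a type and less RNA per cell cannot be told apart.

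Members of the Ly6Chi list that fell included matrix proteins, clotting factors and an integrin. Fibronectin, Fn1, was at 3061 and 2444 TPM in Ly6Chi and at 35.0 in Ly6Clo. It fell 78.5-fold (−6.25 ± 0.47, adjusted p = 0.00111), with a large gap between the populations beside a spread of 436 TPM (SD, n = 2) in Ly6Chi. The proteoglycan versican, Vcan, went from 112 and 74.5 TPM to 1.00, the lowest of the 3 libraries by far (−5.53 ± 0.30, adjusted p = 0.000487). Coagulation factor XIII, F13a1, was at 1495 and 1336 TPM against 43.4, and the chitinase-like protein Chil3 at 2532 and 2132 against 130.03. Both fell, by 4.99 and 4.15 on the log2 scale. Collagen-binding integrin Itga1 fell from 31.8 and 26.6 TPM to 0.790, factor X, F10, from 165 and 189 to 36.5, and the cysteine-rich protein gene Plac8 from 2579.7 and 2998 to 976. Each of these genes except Itga1 was called in all 17 alternative analyses, and Itga1 in 15, with an adjusted p of 0.0664 and 0.0569 without Ly6Chi replicates 1 and 2.

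Several well-known Ly6Chi markers differed by less than the test could call. Ccr2, the receptor for bone marrow exit, was at 1401 and 1357 TPM in Ly6Chi and 576 in Ly6Clo. Ly6Clo was clearly the lower library, but the 2.39-fold difference did not pass (−1.26 ± 0.34, adjusted p = 0.0703), and 5 of 17 alternatives called it. S100a4, a calcium-binding protein of motile cells, was at 3916 and 3704 against 1355 TPM (adjusted p = 0.0849). Lysozyme Lyz2, the most abundant transcript of the list, stood at 36103 and 38197 TPM in Ly6Chi and 22059 in Ly6Clo (−0.75 ± 0.36, adjusted p = 0.241). The transcription factor gene Klf4 was at 250.02 and 262 against 296, higher in Ly6Clo but not called (adjusted p = 0.744). The 4 members that rose were the lipid transfer protein Pltp, Ly6a, Lyz1 and Trem3. Pltp went from 26.1 and 25 TPM to 479 (4.18 ± 0.20, adjusted p = 0.000338). Ly6a and Ly6c1, like Lyz1 and Lyz2, have close paralogs, so reads shared between copies make their values uncertain. Without a Ly6Chi replicate Ly6c1, Lyz1 and Trem3 lost their calls (adjusted p between 0.0622 and 0.11), and Ly6a did without replicate 1 (0.0591).

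**Figure D1:**
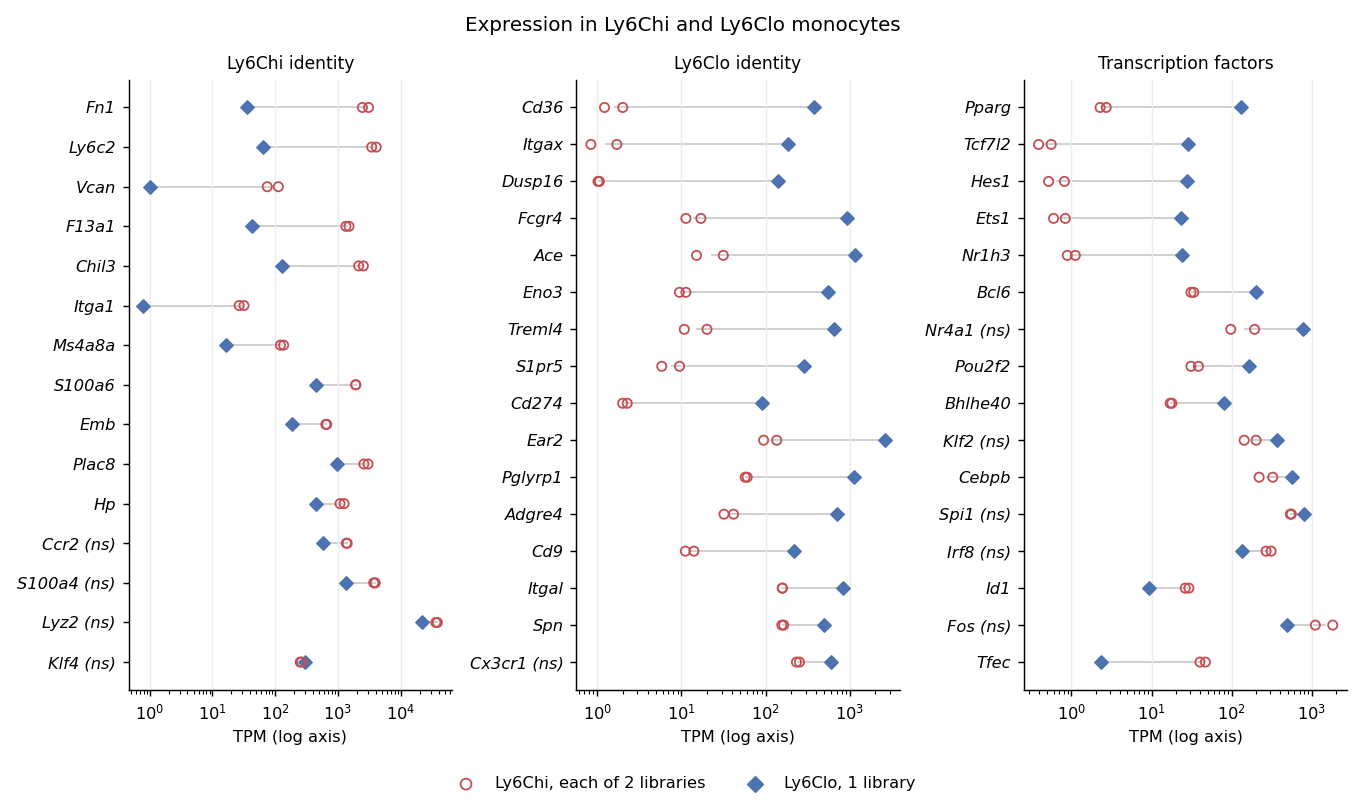
TPM of genes of Ly6Chi and Ly6Clo monocytes and of transcription factors on a log axis, with open circles for the 2 Ly6Chi libraries, a diamond for the 1 Ly6Clo library, and (ns) for genes that limma did not call. Fn1, Ly6c2 and Vcan sit far to the left in Ly6Clo and Cd36, Itgax and Fcgr4 far to the right, while Ccr2, Cx3cr1 and Nr4a1 are apart without being called.

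Most members of the Ly6Clo list rose, a list likewise drawn up with earlier results of these data known. Of its 37 tested genes 31 were higher and 0 lower by limma's test (0 lower also at an unadjusted p under 0.05). All 37 were above both Ly6Chi libraries, with a median of 3.18. Without Ly6Chi replicate 1 or 2 the rising members numbered 24 and 25. Cd36, a scavenger receptor for oxidised lipoproteins and fatty acids, had the largest log2 rise among the called genes with at least 10 TPM in Ly6Clo. It was at 1.22 and 2.01 TPM in Ly6Chi and 372 in Ly6Clo, 230.4-fold higher (7.17 ± 0.26, adjusted p = 0.000246). Ly6Chi was near the detection floor in both replicates. The integrin subunit CD11c, Itgax, was at 1.71 and 0.840 TPM in Ly6Chi and 186 in Ly6Clo, 146-fold higher (6.39 ± 0.31, adjusted p = 0.00034). Dusp16, a phosphatase acting on stress-activated kinases, was at 1.02 and 1.06 against 140.5 TPM (6.12 ± 0.21).

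Further members of that list were enzymes and surface proteins of varied roles. Ace, the angiotensin-converting enzyme, was at 31.5 and 15.1 TPM in Ly6Chi and 1164 in Ly6Clo, 49.97-fold higher (5.67 ± 0.41, adjusted p = 0.000993). The Ly6Chi replicates (SD 11.5 TPM, n = 2) lay far closer to each other than to Ly6Clo. Treml4, an innate receptor, was at 20.1 and 10.8 against 659 TPM (5.38 ± 0.36), and Eno3, the muscle form of enolase, at 11.3 and 9.47 against 553 (5.61 ± 0.22). Ear2, an eosinophil-associated ribonuclease, reached 2633 TPM from 136 and 95.0. All 3 rose in every alternative, and Ear2 belongs to a family of near-identical genes, which makes its value uncertain. Cd274, the checkpoint ligand PD-L1, rose from 2.0 and 2.27 TPM to 90.1 (4.86 ± 0.40, adjusted p = 0.00144). Smaller rises were those of Spn, which encodes the sialomucin CD43 (164 and 156 against 489 TPM), and of Csf1r, the receptor for the survival cytokine M-CSF (547 and 535 against 1629). The 1.59 ± 0.35 of Csf1r had an adjusted p of 0.0381 and was called in 10 of 17 alternatives. Without a Ly6Chi replicate the adjusted p rose to 0.154 or 0.156 for Csf1r and to 0.0902 or 0.0978 for Spn.

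Both textbook markers of the patrolling state missed the threshold. Nr4a1 was at 97.3 and 193 TPM in Ly6Chi and 785 in Ly6Clo. Ly6Clo was the highest of the 3, but the Ly6Chi replicates themselves lay far apart, and the 5.41-fold difference did not pass (2.51 ± 0.84, adjusted p = 0.115). Cx3cr1, the fractalkine receptor, was at 253 and 233 TPM against 605. Ly6Clo was above both, and the 2.49-fold difference had a wide error (1.31 ± 0.81, adjusted p = 0.355). Each was called in 3 of 17 alternatives. Il17ra, Nfkbia, Smpdl3a and Sgk3 were the other members not called.

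A further set of genes could not enter the test because only Ly6Clo, among the 8 libraries, reached 1 TPM. There were 490 such genes, 265 of them protein coding and 31 at 10 TPM or more, and 28 were variable segments of immunoglobulin genes. The following were singled out after their values were seen. Cd300e, an activating receptor of the Cd300 family, was at 0.16 and 0.10 TPM in Ly6Chi and 421 in Ly6Clo. The fatty acid carrier Fabp4 was at 0.460 and 0.470 against 213 TPM. Cathepsin K, Ctsk, known from osteoclasts, was at 0.510 and 0.260 against 153. Ly6Chi held almost no RNA of these 3 genes. The same was true of the transglutaminase gene Tgm2 (0.970 and 0.550 against 141 TPM), the receptor gene Lilra5 (0.350 and 0.230 against 107) and Ikzf3, a lymphoid zinc-finger factor (0.850 and 0.620 against 75.7).

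Of 63 transcription factors of monocytes, 14 were higher in Ly6Clo (22.2%) and 2 lower (3.17%), with a median of 0.43. Over all genes tested 5.90% were higher and 7.12% lower, and the counts of the lists below are to be read against these shares. The rising members numbered 6 and 8 without Ly6Chi replicates 1 and 2, 8 without either knockout replicate, and 22 without either cMoP replicate. Pparg, a lipid-sensing nuclear receptor, was at 2.28 and 2.72 TPM in Ly6Chi and 130.3 in Ly6Clo, 52.1-fold higher (5.23 ± 0.25, adjusted p = 0.000338). Nr1h3, which encodes the oxysterol receptor LXRα, was at 1.12 and 0.890 TPM against 23.8 (3.63 ± 0.28, adjusted p = 0.00116). Both receptors were low in each Ly6Chi library and clearly present in Ly6Clo. Tcf7l2, which acts with β-catenin in Wnt signalling, was at 0.560 and 0.390 TPM against 28.1 (4.31 ± 0.28), and Hes1, a target of Notch, at 0.820 and 0.520 against 27.4 (4.09 ± 0.37). The repressor gene Bcl6 rose from 31.1 and 33.6 TPM to 201 (2.60 ± 0.24, adjusted p = 0.00193). Cebpb, which Ly6Clo monocytes need to survive, was at 219 and 325 against 565 TPM. Its 2.07-fold rise was small beside those above (1.08 ± 0.24, adjusted p = 0.0403, called in 9 of 17 alternatives, adjusted p = 0.123 without Ly6Chi replicate 1).

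Tfec, a relative of the lysosomal regulator Tfeb, fell from 40.2 and 46.9 TPM to 2.34, 18.6-fold lower (−3.73 ± 0.24, adjusted p = 0.000712). The inhibitor of differentiation Id1 fell as well, by 1.5 on the log2 scale, with an adjusted p of 0.143 and 0.112 without Ly6Chi replicates 1 and 2. Irf8, which directs progenitors to the monocyte and dendritic cell lineages, was at 310.0 and 268 TPM in Ly6Chi and 135 in Ly6Clo, below both but not called (adjusted p = 0.071). Spi1, the master regulator PU.1, was at 538 and 554 against 804 TPM, also not called (adjusted p = 0.0908). The immediate-early gene Fos was at 1103 and 1818 against 491 TPM, with replicates too far apart for a call (−1.53 ± 0.87, adjusted p = 0.323).

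Among receptors that steer migration 34.8% of those tested were higher. The 4.35% that were lower lay under the 7.12% of all genes tested. Of 23 tested, 8 were higher and 1 was lower, and the rising members numbered 5 and 3 without Ly6Chi replicates 1 and 2 and 4 without either knockout replicate. S1pr5, the sphingosine-1-phosphate receptor through which Ly6Clo monocytes leave the marrow, was at 9.5 and 5.84 TPM in Ly6Chi and 283 in Ly6Clo, 36.9-fold higher (5.07 ± 0.39, adjusted p = 0.00118). The formyl peptide receptor gene Fpr1 rose from 2.71 and 2.63 TPM to 37.9, and the complement C5a receptor gene C5ar1 from 7.35 and 8.38 to 66.5. Ccr1, a receptor for inflammatory chemokines, was the only one to fall, from 51.5 and 45.6 TPM to 8.08 (−2.45 ± 0.29, adjusted p = 0.00494). The retention receptor gene Cxcr4 was at 234 and 226 against 341 TPM and was not called (adjusted p = 0.0908).

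Among 30 tested entries of adhesion genes 11 rose (36.7%) and 5 fell (16.7%). These counts were 6 and 2 without either Ly6Chi replicate. Integrin αL, Itgal, which binds ICAM on endothelium and holds patrolling cells to it, was at 158 and 159 TPM in Ly6Chi and 837 in Ly6Clo, 5.29-fold higher (2.40 ± 0.32, adjusted p = 0.00715). Its partner Itgb2 was at 532 and 562 against 1396 TPM, above both but not called (adjusted p = 0.0761). The endothelial and leukocyte adhesion molecule Pecam1 rose from 9.36 and 11.05 TPM to 62.0, and the tetraspanin gene Cd9 from 14.1 and 11.1 to 215. Among the members that fell were Pira2, Cd24a, Itga6 and Itga5. Pira2, a paired receptor with close paralogs, went from 142 and 125 TPM to 16.5. Pecam1, Pira2, Itga6 and Itga5 lost their calls without a Ly6Chi replicate, with adjusted p between 0.0693 and 0.203.

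Among 41 Fc, complement and phagocytic receptor genes 15 rose (36.6%) and 5 fell (12.2%). Without Ly6Chi replicates 1 and 2 the rising members numbered 9 and 8, and 3 fell without replicate 2 or either knockout replicate. All chains of C1q, the protein that starts the classical complement pathway and tags dying cells for uptake, were nearly silent in Ly6Chi. C1qa was at 1.19 and 0.910 TPM against 179.8 in Ly6Clo, 171-fold higher (6.47 ± 0.21, adjusted p = 0.000246). C1qb went from 2.66 and 2.09 TPM to 258, and C1qc from 1.12 and 0.900 to 134. The 3 genes lie side by side in the genome and rose by similar factors, 109-fold for C1qb and 133-fold for C1qc. Fcgr4, the activating IgG receptor of Ly6Clo monocytes, rose from 17.04 and 11.3 TPM to 933, 65.8-fold (5.97 ± 0.33, adjusted p = 0.00049). Fcgr3, another activating IgG receptor, was at 459 and 398 against 489 TPM and was not called. Central complement component C3 moved the other way, from 798 and 818 TPM to 116, 6.97-fold lower (−2.79 ± 0.28, adjusted p = 0.0026). The scavenger receptor Msr1 fell from 119 and 109 TPM to 21.1, and properdin, Cfp, from 310 and 276 to 87.7.

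Genes of MHC class II, which shows peptides to CD4 T cells, led the antigen presentation list, of which 36% rose and 4% fell. Of its 25 genes 9 were higher and 1 was lower, 4 of them higher without Ly6Chi replicate 1 and 7 without replicate 2. The class II β chain H2-Eb1 was at 107.61 and 70.6 TPM in Ly6Chi and 3132 in Ly6Clo, 35.2-fold higher (5.15 ± 0.50, adjusted p = 0.00249). H2-Aa was at 281 and 206 TPM against 4274, and H2-Ab1 at 211 and 172 against 3354, 17.6-fold and 17.5-fold higher. Their invariant chain Cd74 went from 729.8 and 781 TPM to 8563 (3.50 ± 0.40, adjusted p = 0.00447). Ciita, the activator that switches on the class II genes, rose from 7.60 and 6.92 TPM to 41.4 (2.36 ± 0.45, adjusted p = 0.025). Of the class I genes H2-K1 was at 825 and 1044 against 3148 TPM, and B2m, the shared light chain, at 2500.2 and 3225 against 7338. Both rose, by smaller factors than the class II chains. Class I genes have many close copies, so their values are uncertain. Ifi30, a thiol reductase of the endosome, fell from 1037 and 1168 TPM to 453 (−1.28 ± 0.16, adjusted p = 0.00596). Without Ly6Chi replicate 1 the adjusted p was 0.111 for Ciita, 0.0932 for B2m and 0.0580 for H2-K1, and without replicate 2 it was 0.121 for Ciita and 0.0540 for Ifi30.

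Class II promoters are known for a shared set of boxes, the X2 box and the inverted CCAAT of the Y box. The 250 bases before the start of H2-Aa and H2-Eb1, the class II genes of this group found in the RefSeq promoter table (GRCm38.p6), are shown for these boxes. Capitals mark TGACGTCA and CTGATTGG, searched on both strands, and the latter contains ATTGG, the reverse complement of CCAAT. H2-Aa (chr17:34287824-34288073, minus strand) holds both, 74 and 51 bases before the start, and H2-Eb1 (chr17:34305617-34305866, plus strand) holds CTGATTGG 62 bases before it.
H2-Aa: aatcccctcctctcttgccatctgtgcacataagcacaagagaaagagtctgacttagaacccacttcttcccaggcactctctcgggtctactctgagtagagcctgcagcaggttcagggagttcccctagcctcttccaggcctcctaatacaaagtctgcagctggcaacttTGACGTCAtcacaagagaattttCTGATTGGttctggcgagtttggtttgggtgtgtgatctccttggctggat
H2-Eb1: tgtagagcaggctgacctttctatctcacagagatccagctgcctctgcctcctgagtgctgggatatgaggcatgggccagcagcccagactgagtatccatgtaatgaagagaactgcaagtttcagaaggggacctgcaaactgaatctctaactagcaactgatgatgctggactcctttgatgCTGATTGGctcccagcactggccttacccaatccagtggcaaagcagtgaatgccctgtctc
Of 27025 promoter windows of this length in the table, 4.43% hold CTGATTGG and 1.77% hold TGACGTCA. Among windows of genes tested here these shares were 6.68% and 3.13%. A match is a description of letters and not a measured binding site.

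The cell cycle list fell as a block. Of 48 genes 47 were lower in Ly6Clo, against 7.12% lower over all genes tested. By limma's test 0 were higher (0 also at an unadjusted p under 0.05), and the median was −3.00. The only Ly6Clo library was kept in every refit. Leaving out any 1 library kept between 43 and 48 members lower. Birc5, the survivin gene of the chromosomal passenger complex, was at 174 and 171 TPM in Ly6Chi and 7.32 in Ly6Clo, 23.6-fold lower (−4.38 ± 0.17, adjusted p = 0.000246). Top2a, the topoisomerase that untangles chromosomes, was at 291 and 286 TPM against 16.5, and Mki67, the classical proliferation marker, at 192 and 154 against 11.03. The mitotic cyclin gene Ccnb2 was at 131 and 117 TPM against 7.11 (−3.95 ± 0.17, adjusted p = 0.000252). Cdc20, which activates the anaphase-promoting complex, was at 86.5 and 82.9 against 6.09 (−3.60 ± 0.15). The Ly6Chi replicates were close to each other in all of these genes and Ly6Clo was far below. Pcna, the sliding clamp of DNA polymerase, was at 254 and 264 against 136 TPM, a 1.90-fold fall with an adjusted p of 0.0866 and 0.0972 without Ly6Chi replicates 1 and 2. E2f1, which drives entry into S phase, was the only member not called (17.7 and 19.6 against 12.6 TPM, adjusted p = 0.158).

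Promoters of mitotic genes are known for CCAAT boxes and for the CHR element, TTTGAA. A search on both strands of the 250 bases before the start found CCAAT in 28 of the 39 cell cycle genes with a promoter in the table (71.8%), against 37.5% of all 27025 windows and 41.1% of those of genes tested. TTTGAA was in 11 of 39 (28.2%), against 18.3% of all windows and 12.96% of those of genes tested, and all 11 also held CCAAT (28.2%, against 6.45%). The windows of Ccnb2 (chr9:70421555-70421804, minus strand), Cdc20 (chr4:118437344-118437593, minus strand) and Top2a (chr11:99024190-99024439, minus strand) are shown because each fell more than 10-fold and holds both elements. Capitals mark CCAAT and TTTGAA or their reverse complements ATTGG and TTCAAA.
Ccnb2: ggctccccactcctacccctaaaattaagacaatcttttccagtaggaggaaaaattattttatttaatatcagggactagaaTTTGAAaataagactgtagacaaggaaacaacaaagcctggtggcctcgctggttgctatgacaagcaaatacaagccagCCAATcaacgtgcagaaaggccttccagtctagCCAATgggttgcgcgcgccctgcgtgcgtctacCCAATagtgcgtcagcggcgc
Cdc20: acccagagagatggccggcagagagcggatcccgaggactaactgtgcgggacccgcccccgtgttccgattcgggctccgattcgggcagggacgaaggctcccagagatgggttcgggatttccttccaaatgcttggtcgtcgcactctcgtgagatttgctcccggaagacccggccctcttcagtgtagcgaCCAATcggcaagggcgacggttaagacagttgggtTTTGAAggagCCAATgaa
Top2a: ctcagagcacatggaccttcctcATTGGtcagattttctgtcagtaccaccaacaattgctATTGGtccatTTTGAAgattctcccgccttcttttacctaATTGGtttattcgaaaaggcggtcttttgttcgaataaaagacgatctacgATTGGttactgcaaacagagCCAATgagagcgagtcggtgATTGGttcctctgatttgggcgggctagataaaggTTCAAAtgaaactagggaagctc
Ccnb2 holds 3 CCAAT boxes, Cdc20 holds 2 and Top2a holds 6. The window of Birc5, which fell as far, holds neither element, which says only that these letters are not in it.

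Anti-apoptotic genes were among those that rose in the survival and death list, of which 22.9% rose and 2.86% fell. Of 35 genes of survival and death 8 rose and 1 fell, and 4 rose without either Ly6Chi replicate and 5 without either knockout replicate. Bcl2a1b, a copy of the anti-apoptotic A1 gene, was at 2.47 and 2.85 TPM in Ly6Chi and 215 in Ly6Clo, 81.0-fold higher (5.89 ± 0.31, adjusted p = 0.00046). Its copies Bcl2a1d (2.55 and 2.72 against 191 TPM) and Bcl2a1a (1.41 and 1.01 against 74.9) rose as well. These copies are nearly identical, and how reads were split between them is uncertain. Bcl2, the founding anti-apoptotic gene, rose from 1.21 and 1.39 TPM to 19.2, 14.8-fold, and was at 74.0 in MDP. Bad, a pro-apoptotic relative, fell 1.96-fold. Without a Ly6Chi replicate the adjusted p was 0.0757 or 0.0672 for Bcl2 and 0.0932 or 0.115 for Bad. The short-lived survival factor Mcl1 was at 384 and 501 against 613 TPM and was not called (adjusted p = 0.354).

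Lipid genes included the most abundant transcript to rise. In the lipid list 23.7% of the tested genes rose and 7.89% fell, the latter near the share over all genes. Apoe, the apolipoprotein that carries cholesterol out of macrophages, was at 728 and 857 TPM in Ly6Chi and 9360.1 in Ly6Clo, 11.8-fold higher (3.56 ± 0.35, adjusted p = 0.00251). Of 38 lipid genes 9 rose and 3 fell (8 and 7 rose without Ly6Chi replicates 1 and 2, and 1 fell without either). Apoc2 rose from 105 and 108.14 TPM to 971, and the cholesterol exporter Abca1 from 3.39 and 3.67 to 24.1. Pparg, Nr1h3 and Pltp are also members of this list. The fatty acid carrier Fabp5 and the sterol synthesis genes Fdps and Fdft1 fell, Fdps from 67.3 and 64.6 TPM to 29.9. Fdps and Fdft1 lost their calls without a Ly6Chi replicate, with adjusted p between 0.0574 and 0.189.

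Lamins A and B changed in opposite directions. Lmna, which encodes lamins A and C and stiffens the nucleus, was at 1.39 and 1.56 TPM in Ly6Chi and 25.5 in Ly6Clo, 17.3-fold higher (3.42 ± 0.28, adjusted p = 0.00137). Lmnb1, the B-type lamin, was at 230.2 and 223 TPM against 25.1, 9.03-fold lower (−3.12 ± 0.17, adjusted p = 0.00046). The gap between the populations was wide in both genes, and Lmnb2 fell too, from 32.1 and 33.8 TPM to 6.57. Vimentin, Vim, the intermediate filament of motile cells, fell from 2276 and 2365 TPM to 499, and the actin-capping protein Capg from 558 and 596 to 67.9. Of 40 genes of actin and lamin 2 rose and 9 fell (5 fell without either Ly6Chi replicate, where Capg had an adjusted p of 0.0587 and 0.0631). Actb was at 5191 and 5954 TPM against 4444 and was not called (adjusted p = 0.313). The 2 genes that rose are 5% of this list, near the 5.90% of all genes tested, and the 9 that fell are 22.5%, against 7.12%.

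The lists that follow are to be read against the 5.90% of all genes tested that were higher and the 7.12% that were lower. Of 52 interferon response genes Ly6Clo was below both Ly6Chi libraries in 37 and above both in 8, and the median was −0.51. Over all genes tested 41.2% were below both and 47.0% above both. At an unadjusted p under 0.05 in limma's test 16 were lower and 0 higher. After adjustment 0 were higher and 6 were lower (11.5%). The 6 became 1 without either Ly6Chi replicate, 2 without either knockout replicate and 15 without either cMoP replicate. Slfn1, a growth-restraining Schlafen gene, fell from 154 and 179.6 TPM to 40.4 (−2.01 ± 0.21, adjusted p = 0.00301), and the restriction factor Ifitm3 was at 2122 and 2629.7 against 2387, not called. Of 49 inflammatory genes 5 rose (10.2%) and 1 fell, with the MAP kinase phosphatase Dusp5 up from 2.99 and 4.02 TPM to 74.6 and Tnfaip2 down from 153 and 151 to 31.0 (adjusted p = 0.0594 and 0.0582 without Ly6Chi replicates 1 and 2). Of 42 lysosome genes Cd63, Lgmn, Cst3 and Cd68 rose (9.52%) and Npc2 fell, beside a median of 0.03, and 1 and 2 rose without Ly6Chi replicates 1 and 2. Glycolysis had 3 up and 3 down of 22, 13.6% in each direction: Eno3, the regulator Pfkfb3 and the lactate carrier Slc16a3 rose, and Pgam1, Pgk1 and Pkm fell. Without either Ly6Chi replicate 1 glycolysis gene rose and none fell.

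RNA-processing factors were read at the level of their own mRNA because the series is about introns. Of 58 splicing regulators Son, which supports splicing of weak introns, rose (168 and 153 against 278 TPM, adjusted p = 0.0487) and Hnrnpll, Rbm3, Hnrnpd and Hnrnpa1 fell (1.72% higher and 6.90% lower, the latter close to the 7.12% of all genes). None of these 5 was called without either Ly6Chi replicate. Of 42 core spliceosome genes Snrpa and Snrpf fell, each under 2-fold, and neither did so without either Ly6Chi replicate. Ly6Clo was below both Ly6Chi libraries in 31 of these 42 genes and above both in 9, against 41.2% below both over all genes tested. Their median was −0.17, and in limma's test 9 were lower and 2 higher at an unadjusted p under 0.05. Sf3b1, the U2 component that contacts the branch point, was at 228 and 214 against 360.1 TPM, not called (adjusted p = 0.0657). Of 20 factors of nonsense-mediated decay limma called 0, with 1 higher and 1 lower at an unadjusted p under 0.05, and Upf2 itself was at 20.2 and 18.2 TPM in Ly6Chi and 19.2 in Ly6Clo. Of 27 ribosome biogenesis genes limma also called 0, with 2 higher at an unadjusted p under 0.05.

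**Figure D2:**
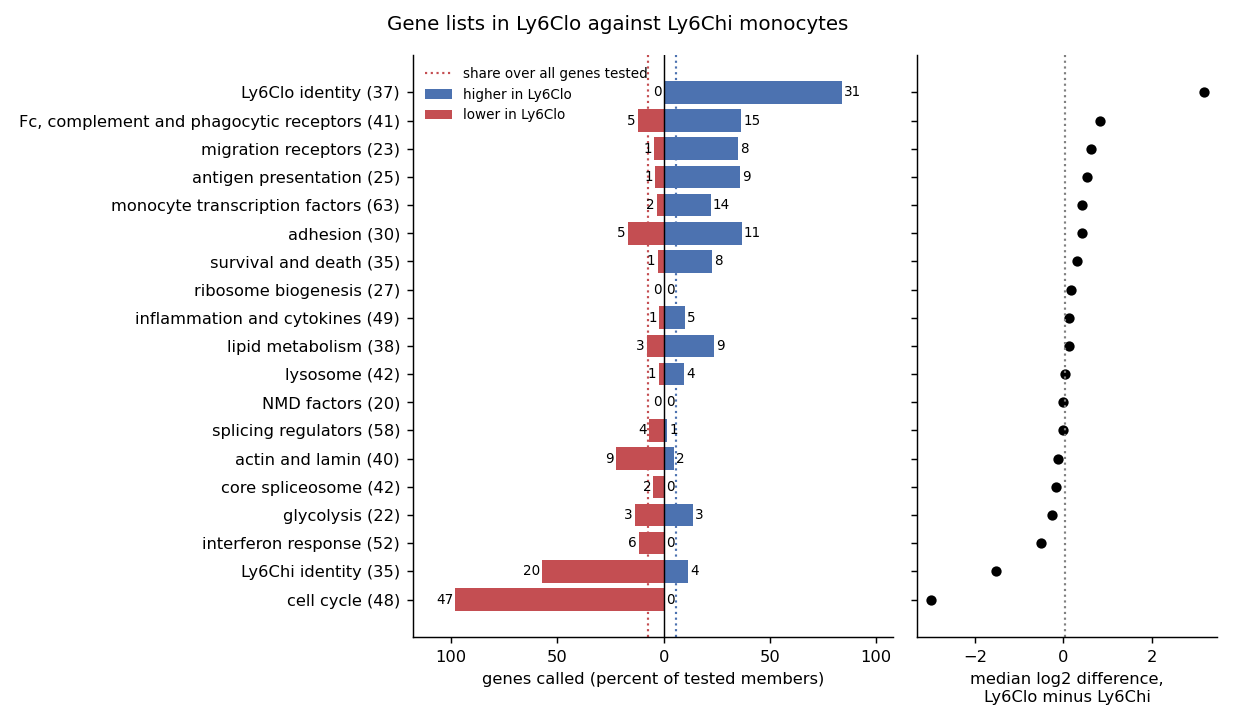
Share of tested members of each gene list called higher or lower in Ly6Clo (bars, percent, with dotted lines at the share over all genes tested), and the median log2 difference of each list (points). Nearly all cell cycle genes were lower and most Ly6Clo identity genes higher. Medians of the splicing, decay and ribosome lists lay between −0.17 and 0.18.

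Markers of other bone marrow cells were read in the same libraries, and their part in these results was not tested. For neutrophils, 5 of 19 markers were higher and 5 lower, and their summed TPM was 2195 and 2729.9 in Ly6Chi and 5565 in Ly6Clo. That sum was higher still in the progenitors, 7825 in MDP and 25787 and 23924 in cMoP, so not all members are particular to neutrophils. The median log2 difference was 1.33, with 11 markers above both Ly6Chi libraries and 7 below both. At an unadjusted p under 0.05 in limma's test 11 were higher and 6 lower. The granule proteinase Mmp9 rose from 4.81 and 7.05 TPM to 112, and S100a9 was at 528 and 723 against 2183, not called (adjusted p = 0.0786). Elane, Prtn3, Ctsg, Fcnb and Padi4 fell, so members of this list moved in both directions (2 rose and 3 fell without either Ly6Chi replicate). For B and plasma cells, 5 of 9 tested markers (of 14) were higher, with summed TPM of 596, 773 and 1167, and Cd79a, a chain of the B cell receptor, at 0.490 and 0.960 against 8.61. For T and NK cells, 14 of 17 markers stayed under 1 TPM in Ly6Clo. Their summed TPM was nonetheless higher there, 23.5 against 7.67 and 6.74 in Ly6Chi, and of the 2 markers tested both were above both Ly6Chi libraries and 1 was called.

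Dendritic cell markers summed to 2325, 2428 and 9384 TPM, with 6 of 13 tested higher, though H2-Aa, Itgax and Cst3 on that list are also genes of Ly6Clo monocytes. Cd209a rose from 16.6 and 16.9 TPM to 168, while Siglech, Xcr1 and Ccr7, which define other dendritic cells, were under 1 TPM. Of the 17 markers listed 5 were under 1 TPM in Ly6Clo, and 10 of the 13 tested were above both Ly6Chi libraries. Macrophage markers summed to 239.99, 248 and 1225 TPM with 7 of 10 tested higher, led by the C1q genes, and the resident macrophage gene Timd4 was at 0.0800 in Ly6Clo. Of the 14 listed 2 were under 1 TPM there, and 9 of the 10 tested were above both Ly6Chi libraries. All 6 tested erythroid and platelet markers were above both Ly6Chi libraries, and 2 were called higher. Haemoglobin was uneven already within Ly6Chi: Hbb-bs was at 12.1 and 72.1 TPM and at 107.61 in Ly6Clo. Ly6Chi replicate 2 stood apart in other genes too. Xist, expressed from the inactive X chromosome, was at 0 in replicate 1 and Ly6Clo and at 36.0 TPM in replicate 2. Ddx3y, a Y-linked gene, was at 31.8, 19.9 and 67.4 TPM. By these genes the mix of male and female cells differed between the Ly6Chi replicates. The immediate-early genes Atf3 (66.6, 260.1 and 45.1 TPM) and Junb (289, 676 and 325) were highest in Ly6Chi replicate 2.

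Intron retention was read from reads across exon-intron boundaries, from spliced reads, and from the ratio of intron coverage to coverage plus spliced reads. Listed introns held 31388146 and 34202084 spliced reads in Ly6Chi replicates 1 and 2 and 28925018 in Ly6Clo. Boundary reads per 100 spliced reads numbered 9.36 and 9.503 in Ly6Chi and 11.6 in Ly6Clo. The balance of 3′ over 5′ spliced reads within genes was alike in all 3 libraries, with a median log2 ratio of 0.32, 0.38 and 0.34. It was less alike in the other replicated groups that entered the spread, 0.56 and 0.82 in cMoP and 0.77 and 0.55 in the Upf2 knockouts.

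An intron was counted as retained at a ratio of at least 0.1. Over 79282 introns measured in the 3 libraries, 6.19% (Wilson 95% interval 6.02 to 6.36) and 5.88% (5.71 to 6.04) were retained in Ly6Chi and 8.07% (7.89 to 8.27) in Ly6Clo. Ly6Clo thus lay 2.04 percentage points above the Ly6Chi mean, outside both intervals, which cover counting error only. With 1 library against 2 an exact permutation test cannot go below p = 0.333. Of these introns 3633 (4.58%) were retained in all 3 libraries. Only 184 introns (0.232%), in 161 genes, went from under 0.05 in both Ly6Chi libraries to at least 0.1 in Ly6Clo, and 34 (0.0429%) went the other way. Between the Ly6Chi replicates, 80 and 71 introns crossed the same cutoffs in either direction. That comparison is looser, as it sets 1 library against 1 and not against both, so the counts are not directly comparable. Among 21960 introns with no warning from the authors' program the shares were closer, 4.25%, 4.34% and 4.995%.

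Retention was next compared by intron length. In introns of at most 100 bp 10.2% and 11.1% were retained in Ly6Chi and 12.5% in Ly6Clo. From above 1000 to 3000 bp the shares were 5.76%, 5.29% and 7.99%, and above 10000 bp 1.18%, 0.863% and 1.84%. By this share short introns were the most retained in each library, and Ly6Clo was the highest library in each length class. The median ratio did not follow that order in introns of at most 1000 bp: up to 100 bp it was 0.0136 and 0.0154 in Ly6Chi and 0.0145 in Ly6Clo, and in both classes between 100 and 1000 bp Ly6Clo also lay between the Ly6Chi replicates. Above 10000 bp boundary reads per 100 spliced reads were lowest in Ly6Clo (8.01, 8.38 and 7.42). Introns in 3′ untranslated regions had the highest shares of the regions compared, 18.2% and 15.2% in Ly6Chi and 24.4% in Ly6Clo over 369 introns. The last introns of transcripts had 9.13%, 8.31% and 12.8%.

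**Figure D3:**
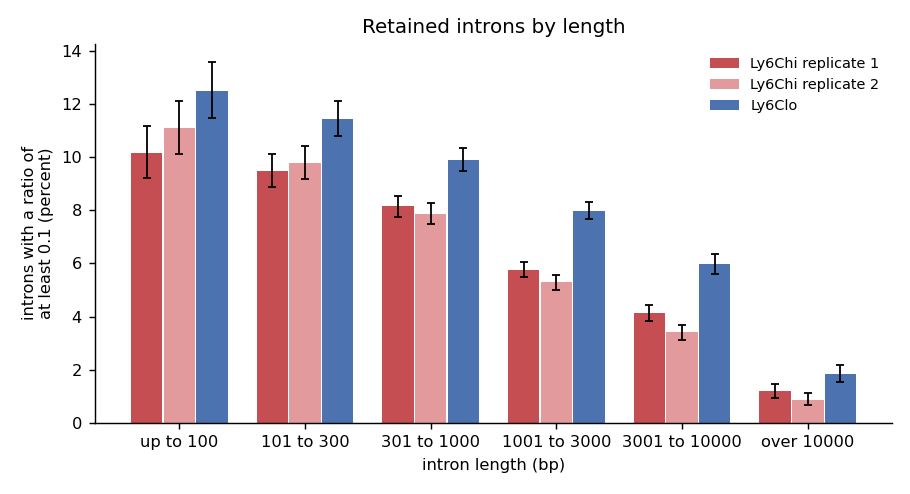
Percent of introns with a retention ratio of at least 0.1 by intron length (bars, 1 per library, with Wilson 95% intervals). Ly6Clo stands above both Ly6Chi libraries in each length class, with 12.5% at up to 100 bp and 1.84% above 10000 bp.

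Genes that fell had the lower share of retained introns in each library, and Ly6Clo was the highest library for both. Introns of genes higher in Ly6Clo were retained at 7.08% and 6.30% in Ly6Chi and 8.20% in Ly6Clo, and introns of genes that fell at 3.79%, 3.32% and 5.35%. In the fit of boundary against spliced reads, the median log2 difference was 0.05 over 1469 introns of genes that rose, 0.24 over 3214 introns of genes that fell and 0.11 over all 48132 tested. For the Ly6Chi identity genes the median was 0.31 over 130 introns and for the Ly6Clo identity genes −0.11 over 136. These are descriptions across introns, which share libraries and genes and are not replicates.

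No single intron was called by edgeR's quasi-likelihood test with Benjamini-Hochberg adjustment (0 of 48132, 0%). At an unadjusted p under 0.05 it had 2391 introns, DESeq2 had 821 and limma 2450, and neither of these tools called any intron. Without cMoP replicate 1 edgeR called 208 introns and without cMoP replicate 2 it called 202, most of them higher. Once boundary and spliced reads were scaled apart, which removes the overall shift of Ly6Clo, 10 introns were higher (0.0208%) and 20 lower (0.0416%), 0.0623% in all. The introns described next come from that scaled fit, itself 1 of the 16 alternatives to the main fit. Called introns given with their values passed in 4 of the 16, the scaled fit included. The only other alternatives to call any intron used the 3 Ly6C libraries alone or left out a cMoP replicate. Several of the 30 had nearly all boundary reads at 1 end, and those named below are marked as such.

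Intron 2 of Map2k1, the gene of the MAP kinase kinase MEK1, had the highest rise among introns retained in Ly6Clo. This coding intron of 1668 bp lies at chr9:64212731-64214398 (mm10). Its retention ratio was 0.027 and 0.019 in Ly6Chi and 0.126 in Ly6Clo, far above both (scaled log2 difference 2.15 ± 0.38, adjusted p = 0.0109). An intron of Slc25a3, the mitochondrial phosphate carrier, at chr10:91122332-91123557, had ratios of 0.130 and 0.137 in Ly6Chi and 0.337 in Ly6Clo (1.76 ± 0.36, adjusted p = 0.0389).

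An intron at the splicing factor gene Sf3b1 is shown in full because it is short and retained in a gene of the spliceosome itself. It spans 193 bp at chr1:55016183-55016375 on the minus strand, is an intron of a noncoding transcript, and starts at the same base as coding intron 4 of 24. The sequence was read from a GENCODE release M21 transcript that keeps it, with the GT and AG ends in capitals.
Sf3b1: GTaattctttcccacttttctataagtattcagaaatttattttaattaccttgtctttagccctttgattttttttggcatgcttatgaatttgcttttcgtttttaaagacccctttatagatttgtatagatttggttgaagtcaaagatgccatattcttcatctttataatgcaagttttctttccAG
Boundary reads numbered 280 and 318 in Ly6Chi and 893 in Ly6Clo, while spliced reads numbered 1193 and 1102 against 839. Its ratio was 0.081 and 0.101 in Ly6Chi and 0.342 in Ly6Clo, with no overlap (1.87 ± 0.36, adjusted p = 0.0278). G and C make up 29.0% of its bases. The longer coding intron that shares its start had ratios of 0.090, 0.140 and 0.326 and was not called (adjusted p = 0.516). Over all 24 tested introns of Sf3b1, 33.3% were above 0 in the unscaled fit, with a median of −0.16, so the rise was not shared by most of them.

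The called intron of the splicing regulator Srsf6 went the other way. This coding intron, 3 of 5, spans 103 bp at chr2:162933551-162933653 and had 33 and 68 boundary reads in Ly6Chi and 5 in Ly6Clo. Its ratio was low throughout, 0.015 and 0.027 against 0.0027 (−3.05 ± 0.62, adjusted p = 0.0389). Of the 7 tested introns of Srsf6, 57.1% were above 0 in the unscaled fit.

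Of the 20 introns lower in the scaled fit, those with a mean ratio of at least 0.1 in Ly6Chi lay in Per1, Sik1, Ptp4a1, Cd14 and Cyp4f18. The others, with lower ratios, lay in Fbxw4, Mkl1, Srgn, Srsf6, Ctsd, Il17ra, Ctss and H2-Ab1. Those of Cyp4f18, Fbxw4, Mkl1 and Ctss had nearly all boundary reads at 1 end. Intron 21 of 22 of the clock gene Per1 (chr11:69108051-69108360, 310 bp, coding) had ratios of 0.129 and 0.336 in Ly6Chi and 0.00886 in Ly6Clo. The scaled difference was −3.68 ± 0.65 (adjusted p = 0.0109), and all 18 tested introns of Per1 were below 0. Intron 6 of 13 of the salt-inducible kinase Sik1 had 0.253 and 0.481 against 0.104, and intron 1 of the phosphatase gene Ptp4a1 0.295 and 0.261 against 0.115. The single intron of Cd14, the co-receptor for lipopolysaccharide, had 0.383 and 0.538 against 0.169. In Per1, Sik1 and Cd14 Ly6Chi replicate 2 had the highest ratio, the replicate that also had the most Atf3 and Junb.

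The class II gene H2-Ab1 joined more mRNA with less retention. Its intron 2 had ratios of 0.033 and 0.051 in Ly6Chi and 0.012 in Ly6Clo, and intron 4 had 0.057 and 0.077 against 0.017. Both were called in the scaled fit, by −2.17 ± 0.35 and −1.74 ± 0.35, and all 5 tested introns of the gene were below 0. Boundary reads of intron 2 still rose in number, from 115 and 138 to 549, while spliced reads went from 971 and 880 to 16163. Fos, chosen after its values were seen, had the opposite pattern: its intron 2 was at 0.085 and 0.031 in Ly6Chi and 0.179 in Ly6Clo and was not called (adjusted p = 0.114 in the scaled fit), where its mRNA was lowest in Ly6Clo.

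**Figure D4:**
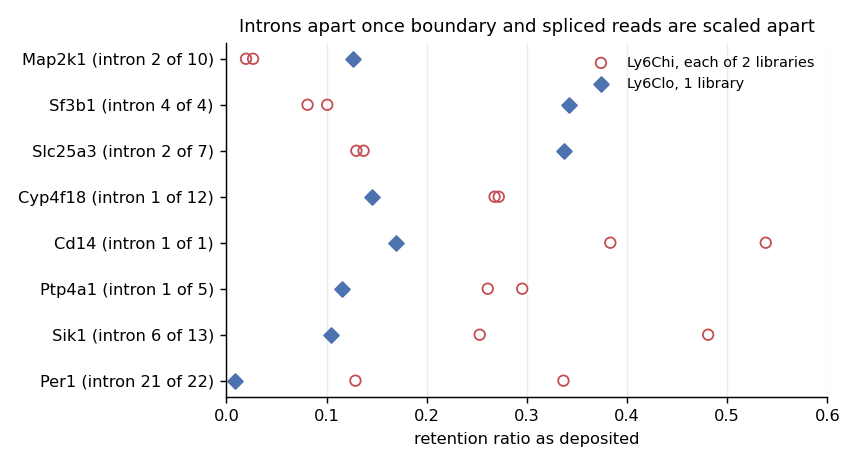
Retention ratio of the introns named from the scaled fit, with open circles for the 2 Ly6Chi libraries and a diamond for the 1 Ly6Clo library. Slc25a3, Sf3b1 and Map2k1 lie higher in Ly6Clo and Per1, Sik1 and Cd14 lower, with wide gaps between the Ly6Chi replicates in the last 3. Cyp4f18 had nearly all boundary reads at 1 end.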

How the data were processed

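Polyadenylated RNA of 8 mouse libraries was analysed; 3 of them, Ly6Chi replicates 1 and 2 and the single Ly6Clo library, form the comparison. Groups came from the labels. The genes, gene lists and tests were chosen with earlier results of these data known. RNA with an integrity number over 7 was made into stranded TruSeq libraries, per the labels' protocols. The submitters' processing notes name FastQC, Trimmomatic, STAR (2.5.2a) and RSEM as tools of the authors, and mm10 and hg38 as builds. Settings: not given in the sources used here.

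Expression values deposited by the authors cover 48709 genes. The table's name says FPKM, but its columns sum to 1000000 (999999 in Ly6Chi replicate 1), so the authors' deposited values were treated as TPM. Design and test were kept. For each library the authors deposited an intron table with whole-number counts of reads across both exon-intron boundaries and of spliced reads. The same tables hold a deposited signal, a trimmed mean of intron coverage, and a deposited fraction, the retention ratio. That ratio was recomputed as coverage over coverage plus the larger spliced count within 0.0001 for 96.7% or more of the introns of each library.

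Expression was tested with limma 3.58.1 in R 4.3.3 (lmFit and trended eBayes) on log2(TPM + 1), a scale that understates the change of low genes. A gene was tested if 2 or more libraries held 1 TPM or more. All 8 libraries shared 1 estimate of the spread, and Ly6Clo, with no replicate, was assumed to vary like the replicated groups. Retention was tested with edgeR 4.0.16 (quasi-likelihood) on the counts as deposited, with U the sum of boundary reads at both ends and S the larger spliced count, a term for each library and a term for U by group. Introns outside known exons and antisense genes were kept (166494 of 204362 shared by all tables), if U + S reached 20 in each library and U reached 20 summed over libraries. The Benjamini-Hochberg adjusted p had to be under 0.05. DESeq2 1.42.0 served as an alternative. Scripts were tested on simulated data.

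Named genes were the 10 largest rises and falls among called genes with at least 10 TPM in the higher group, up to 4 called members of each list and direction, up to 3 abundant uncalled members, and any identity gene or transcription factor; others are examples chosen after their values were seen. A gene that this rule names is not reported here. Named introns were the 6 largest rises and falls with a ratio of at least 0.1 in the higher group, 1 per gene, and called introns of listed genes. Intron places follow GENCODE release M21, which holds 99.9% of the introns. Promoter sequences come from RefSeq (GRCm38.p6).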

Additional observations from a re-analysis of the deposited data

How the results depend on the processing

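Of 17 alternatives for expression, all of which kept the only Ly6Clo library, none turned the direction of a named gene that was called. Signs of some uncalled ones did turn, such as Ifitm3 (0.01, and −0.14 without Ly6Chi replicate 1) and Klf6 (−0.05, and 0.19 without replicate 2). Against 1708 genes called, 3590 passed with no filter on low values, 2617 with quantile normalisation, 3293 with only the 3 libraries of the comparison and 950 without the Upf2 knockout group. Leaving out 1 library gave between 587 and 3683. With no filter 2571 genes were higher and 1019 lower, against 774 and 934. For introns, where edgeR called 0, scaling U and S apart gave 30, only the 3 libraries gave 423, and leaving out 1 library gave between 0 and 208. The excess of retained introns in Ly6Clo, 2.04 percentage points, was 2.88 at a ratio of at least 0.05, 0.888 at 0.2 and 0.697 over introns without a warning, and between 1.89 and 2.20 when either Ly6Chi library was left out. The cause of these shifts was not tested. Over the alternatives, named genes kept their side of the threshold in 2126 cases, lost the call in 132 and gained it in 97, and named introns kept it in 189 and gained it in 64. The 64 gains include those of the scaled fit, by which these introns were named. The intron of Cyp4f18 went from −1.57 to 0.47 when the smaller boundary count was doubled. Boundary reads per intron limit the precision of retention, and whether more depth would give calls was not tested: edgeR also called 0 at U + S of at least 50. No paired analysis was possible because the Ly6Clo group has 1 library, so the groups share fewer than 2 replicate numbers.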
